A study of Caenorhabditis elegans with 71 samples.

Results

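Wild-type Caenorhabditis elegans larvae grown at 25C were compared with wild-type larvae grown at 20C through the third larval cycle, the stretch of development between the second and the third of the molts that punctuate larval life. The comparison holds 14 of the 71 libraries of the series. At 25C these are the 7 libraries of the population called DH3 taken every 1.5 h from 19.5 to 28.5 h after feeding, and at 20C the 7 libraries of the population DH2 taken every 2 h from 26 to 38 h. Each 25C library was paired with the 20C library at 4/3 of its time, so that the hours of the faster culture run along those of the slower one. All larvae were of strain N2, hatched without food so that they waited in the first stage, and were then put on plates with OP50 bacteria. Poly(A) RNA of whole animals was sequenced, with 1 library per time point. A further wild-type population at 20C (DH5, 38 to 48 h) and DH4, 20C larvae that carry lin-4(e912), serve here only to show how far another 20C population lay from DH2. Each temperature is carried by 1 population, so temperature and population cannot be told apart, and every p-value below measures the spread between time points, which are not independent cultures. The sequencing depth, estimated from the smallest steps of the values, was 15.7 to 36.5 M reads at 20C and 19.9 to 28.4 M reads at 25C.

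Nematodes take on the temperature of their surroundings, and warmth within the fertile range speeds their growth without changing the order of the stages. Cells answer heat by making chaperones, many of them under the heat shock factor HSF-1, and adjust their membranes by changing how many double bonds their fatty acids carry, with delta-9 desaturases acting first. During each larval cycle the epidermis lays down a new cuticle, and many genes for collagens, molting proteases and their regulators rise and fall with it.

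Whether the pairing placed like stages side by side was read first from the whole transcriptome. Across genes, which are not replicates, the log2 values of the 25C libraries at 19.5, 21 and 22.5 h correlated best with the 20C libraries that the factor assigns them, at 26, 28 and 30 h, with r = 0.975, 0.978 and 0.977. The library at 24 h was most like 34 h (r = 0.976) rather than its partner at 32 h (r = 0.972), and that at 25.5 h was most like its partner at 34 h (r = 0.972). At 27 and 28.5 h the best match was the 38 h library of DH5 (r = 0.984 and 0.983), above the partners at 36 h (r = 0.964) and 38 h (r = 0.974) of DH2. These last 25C libraries also stood very close to each other: 2 of 9332 genes differed by 2-fold, against 217 to 878 genes between the other neighbours from 19.5 to 27 h. Low counts also occurred elsewhere in the series, with 1 of 9514 genes between 42 and 44 h in the lin-4 mutant. In DH5 it was 21 of 9091 genes between 38 and 40 h. The differences between the 27 and 28.5 h libraries came to 2.21 times the counting variance, the lowest ratio among all neighbouring libraries (3.11 was the next). These ratios rest on an estimated depth and do not settle whether the libraries at 27 and 28.5 h are separate samples. They are counted as 2 here. Averaged into 1, they left 192 genes higher and 44 lower at 25C, against 193 and 42 with both, and without the pairs at 36 and 38 h the counts were 196 and 42. Whether the labelled times of these libraries are right was not tested, and what is said of the pairs at 36 and 38 h rests on them.

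**Figure D1:**
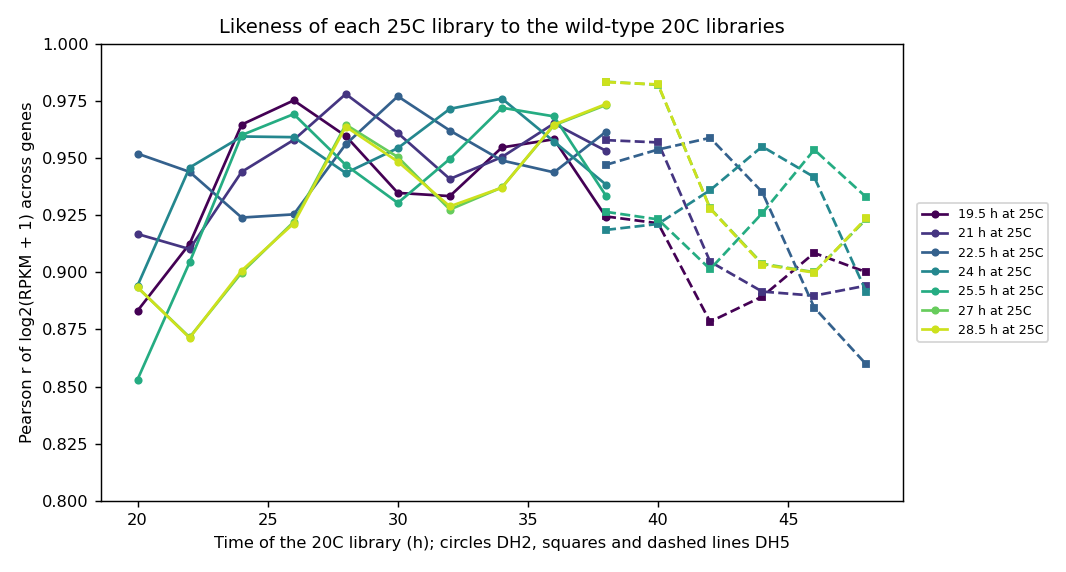
Pearson correlation across genes of log2(RPKM + 1) between each of the 7 libraries at 25C (colours) and wild-type 20C libraries from 20 h on (x axis, h), with circles for DH2 and squares for DH5. The peak moves to later 20C times from 26 h for the 19.5 h library to 38 h for the libraries at 27 and 28.5 h, whose lines lie on top of each other.

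The regulators of developmental time and of the molt gave no call between the temperatures. None of the 17 heterochronic genes, which assign fates to successive larval stages, was called higher or lower, and none of 27 molting factors or 19 transcription factors of the epidermis and the seam. A call here needs limma's p, adjusted by Benjamini and Hochberg, to be under 0.05 and the temperatures to differ by 1 or more on the log2(RPKM + 1) scale. Of all 12543 genes tested 1.54% were called higher and 0.335% lower. The molting gene mlt-10 marks the cycle itself: at 25C it stood at 184 RPKM at 19.5 h, 29.1 at 22.5 h and 253 at 25.5 h, and at 20C it went from 178 RPKM at 26 h through 41.2 at 30 h to 177 at 36 h. lin-29, the transcription factor that drives the adult switch of the epidermis, was highest at 63.5 RPKM at 24 h at 25C and at 42.9 RPKM at 34 h at 20C. lin-41, which holds back that switch, was highest at 22.5 h at 25C (77.4 RPKM) and at 30 h at 20C (85.3 RPKM), and lowest in the last library of each, at 17.9 and 18.1 RPKM. For all 3 genes the ranges at 25C and 20C overlapped. The mean differences were 0.06 ± 0.21 (SE) for mlt-10 and -0.01 ± 0.14 for lin-29, and -0.17 ± 0.08 for lin-41 (limma adjusted p = 0.84, 0.97 and 0.13).

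Other timing genes gave no call either. lin-14 differed by 0.05 ± 0.06 and lin-28 by 0.09 ± 0.06, both of them early-stage regulators that the microRNA lin-4 turns down. hbl-1, which acts early in larval life, differed by 0.13 ± 0.08, and the period relative lin-42 by -0.34 ± 0.22. For mab-10, a partner of lin-29, the difference was -0.24 ± 0.23 and for the molting nuclear receptor nhr-23 -0.24 ± 0.19. Adjusted p-values in limma ran from 0.23 to 0.55 for these 6 genes. The sign of all 9 of these differences changed in at least 1 alternative, with the scaling, the alignment or the pairs used. The pair at 36 h, whose libraries were least alike, differed for lin-42, which stood at 36.9 RPKM at 27 h at 25C and at 118 RPKM at 36 h at 20C.

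In all, 193 genes were higher at 25C and 42 lower. With a pseudocount of 5 RPKM in place of 1 these counts were 82 and 16, and with 0.1 RPKM 286 and 78. Of the 193 higher genes 190, and of the 42 lower genes 34, had the same sign in all 7 pairs. The median change of called genes was 1.42 log2 for the higher and -1.24 for the lower, beside 0.09 over all genes tested, and 40 genes rose and 5 fell by 2 log2 or more. After the libraries were rescaled by the median of gene ratios, the median over all genes was 0.00 in place of 0.09, with 158 genes higher and 57 lower, the latter with all 42 of the lower ones. Adjusted p alone, with no minimum change, was passed by 3399 genes in the higher and 1052 in the lower direction.

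**Figure D2:**
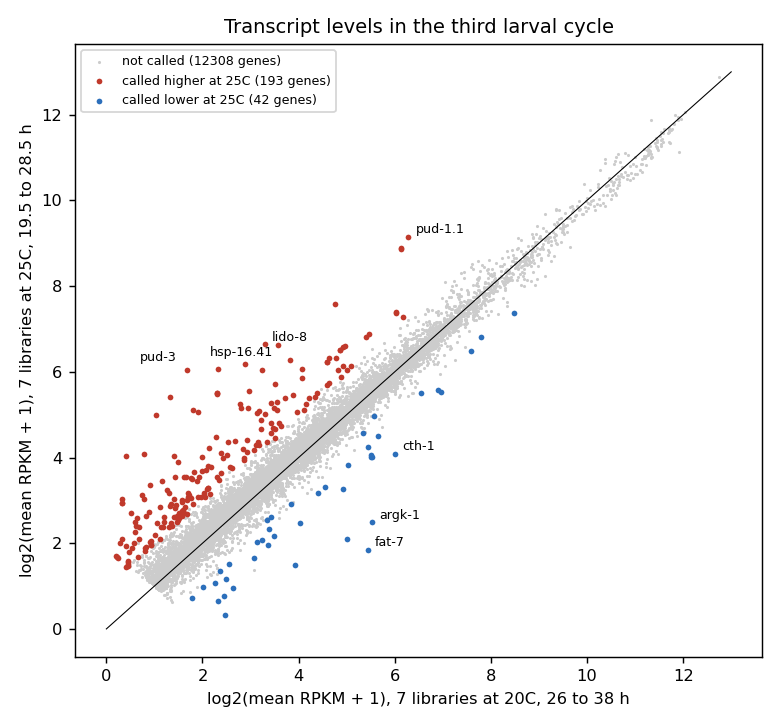
Mean level of each of the 12543 genes tested at 20C (x axis) and at 25C (y axis), as log2 of the mean RPKM of 7 libraries plus 1, with the line of equal levels. The 193 genes called higher at 25C (red) reach from near 0 to the level of pud-1.1, and fat-7 and argk-1 lie farthest below the line among the 42 called lower (blue).

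On the log2(RPKM + 1) scale the 2 largest rises were those of pud-3 and pud-4, of a family named for proteins that are more abundant in mutants of the insulin receptor DAF-2. All 6 pud genes of the table, a family looked at after its members led the calls, were higher, by 3.07 to 4.35 log2. pud-3 (F15E11.15) had a lowest, median and highest level of 25.5, 46.7 and 156 RPKM at 25C and of 0.419, 1.85 and 7.81 RPKM at 20C. The groups did not overlap, and the change was 4.35 ± 0.34 log2 (limma adjusted p = 4.4e-05). It ran from 3.08 to 5.11 over the alternatives, and with a pseudocount of 0.1 RPKM Y68A4A.13 (5.20) stood ahead of pud-4 and pud-3 (5.11 each). pud-4 (F15E11.12) followed with 4.15 ± 0.33, and the entry F15E11.15b, which shares its clone name with pud-3 and may share its reads, with 3.81 ± 0.32. The most abundant member, pud-1.1 (F15E11.13), had a lowest, median and highest level of 337, 525 and 832 RPKM at 25C and 22.5, 44.0 and 225 RPKM at 20C, a change of 3.30 ± 0.39. Its paralog pud-1.2 (Y19D10B.7) changed by 3.23 ± 0.38. The pair pud-2.1 and pud-2.2 had near-equal values in every library, so their reads may be shared, and each rose by 3.07 ± 0.33. Within the 7 paired 20C libraries all 6 were highest at 30 h, where pud-3 was at 7.81 RPKM beside at most 2.17 RPKM in the other 6. Before the window, at 24 h, it stood at 13.5 RPKM at 20C. The difference of pud-3 was 4.74 in the preceding cycle. In arrested larvae at 0 h the family was split: pud-3 and pud-4 were lower in the 25C population by -0.69 and -0.37 log2, and pud-1.1, pud-1.2, pud-2.1 and pud-2.2 were higher in it by 0.77, 0.74, 1.09 and 1.09.

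The 6 hsp-16 genes and sip-1, all for small heat shock proteins, were higher at 25C, and no constitutive chaperone was called. Of 16 inducible heat shock genes tested 7 were called higher and none lower, with a list median of 0.60 log2 (1.54% of all genes were called higher). Above every paired 20C library lay 5 of them (4.8% of all genes tested did). hsp-16.41, which encodes an alpha-crystallin type chaperone and shares its promoter region with hsp-16.2, had a lowest, median and highest level of 27.1, 63 and 143 RPKM at 25C and of 1.65, 2.00 and 8.45 RPKM at 20C. The groups were apart and the change was 3.70 ± 0.28 (limma adjusted p = 3.5e-05), with 2.83 to 4.06 over the alternatives. hsp-16.2 stood at 25.7, 74.4 and 117 RPKM at 25C against 3.71, 5.53 and 14.2 RPKM at 20C, again without overlap (2.78 ± 0.26, adjusted p = 0.00012). Both were highest at 19.5 h, the first 25C library of the window, and lowest at 28.5 h. Between these ends hsp-16.41 was at 31.6 RPKM at 22.5 h and 76.5 RPKM at 25.5 h. sip-1, a further small heat shock gene, was at 18.6 RPKM in the first 25C library and 46.3 RPKM in the last. It was 2.198 ± 0.13 log2 above 20C on average. The first and last libraries at 20C differed in the same directions, sip-1 from 3.40 to 7.93 RPKM and hsp-16.41 from 5.49 to 1.65 RPKM.

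The 4 remaining hsp-16 genes rose less, hsp-16.48 and hsp-16.49 by 1.79 ± 0.20 each and hsp-16.1 and hsp-16.11 by 1.75 ± 0.20 each. Within both pairs values were equal to 0.0013 log2 or closer in all libraries, so the 4 entries may hold reads of 2 measured sequences. Other members of the list did not pass: the HSP70 genes hsp-70, F44E5.4 and F44E5.5 differed by 0.46 ± 0.17, 0.58 ± 0.24 and 0.61 ± 0.25, and hsp-12.3 by -0.63 ± 0.32. hsp-25 (-0.27 ± 0.05) and hsp-12.1 (0.35 ± 0.06) passed the adjusted p in limma, at 0.0033 and 0.0038, below the minimum change.

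Among 19 genes for cytosolic chaperones and their regulator none was called, and none of 19 chaperones of the endoplasmic reticulum and the mitochondria. The constitutive HSP70 gene hsp-1 ran from 1312 to 1477 RPKM at 25C and from 1305 to 1649 RPKM at 20C, a difference of -0.04 ± 0.05 (limma adjusted p = 0.52). hsf-1, the transcription factor of the heat shock response, lay at 17.3 to 20.6 RPKM at 25C, above all of the 13 to 17 RPKM at 20C. Its difference of 0.32 ± 0.05 passed the adjusted p (0.0015, limma) but is under the minimum change. The chaperonin subunits cct-1 to cct-8 pointed down, with cct-3 lowest at -0.52 ± 0.12.

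In the lin-4 mutant at 20C between 26 and 38 h, hsp-16.41 ranged from 8.25 to 44.2 RPKM and hsp-16.2 from 15.45 to 65.3 RPKM, which overlaps the 25C values of both. In DH5 hsp-16.41 was at 6.57 to 11.3 RPKM, below the 25C range. For sip-1 the mutant ranged from 2.96 to 5.36 RPKM, below the 25C range, but in DH5 from 6.64 to 22.0 RPKM, which reaches into it. The part of these differences that goes with the population was not tested.

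**Figure D3:**
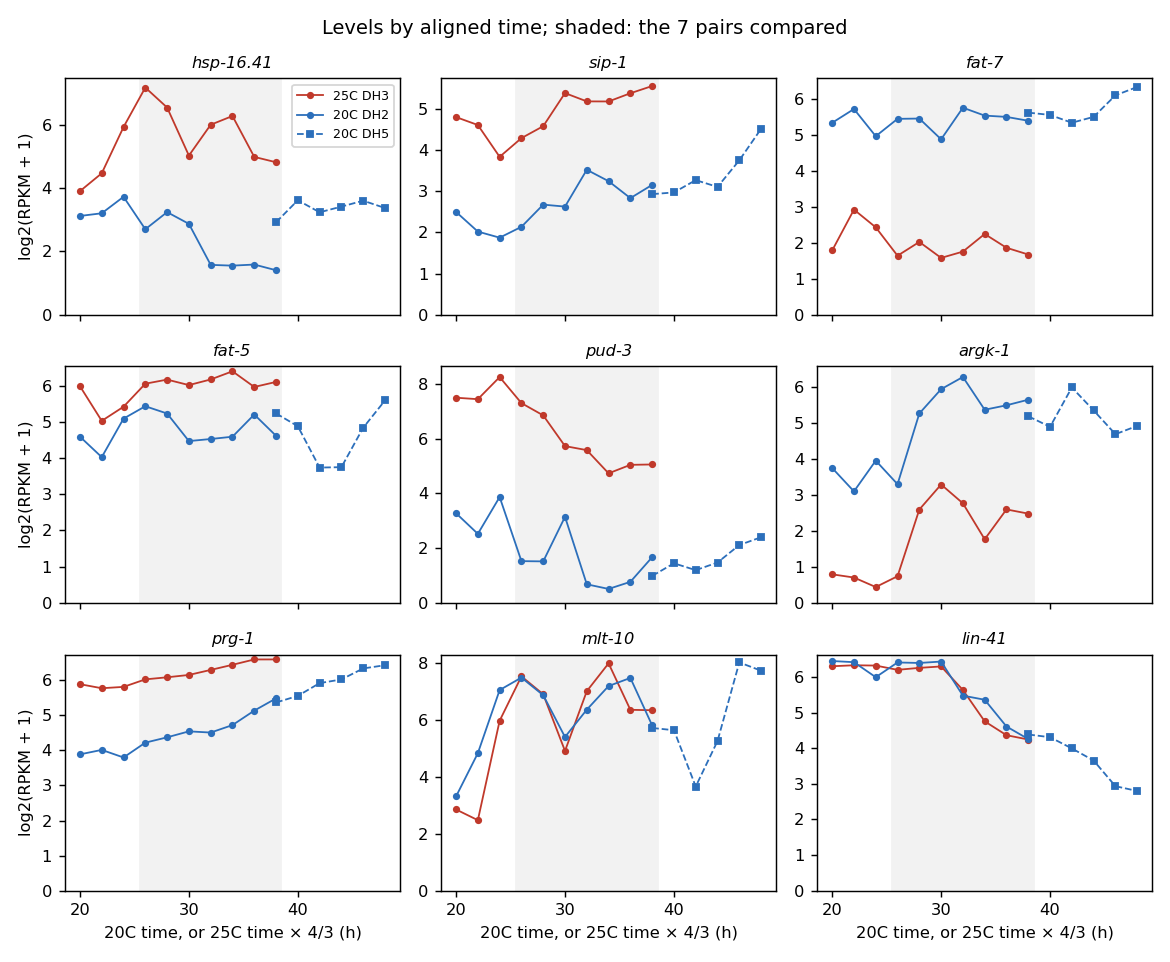
Levels of 9 genes as log2(RPKM + 1) against 20C time, or 25C time multiplied by 4/3, in h, for 25C (DH3, red) and 20C (DH2, blue circles; DH5, blue squares). Within the shaded 7 pairs the first 7 genes keep the temperatures apart at every pair, while the ranges of mlt-10 and lin-41 overlap. The later mlt-10 peak stands at 34 h of aligned time at 25C and at 36 h at 20C.

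The delta-9 desaturases moved in opposite directions. fat-7, which turns stearic into oleic acid, was the most reduced gene: its lowest, median and highest levels were 1.99, 2.37 and 3.73 RPKM at 25C and 28.3, 42.7 and 52.8 RPKM at 20C. Every 25C library lay below every 20C library, also those of DH5 (39.3 to 79.2 RPKM) and of the lin-4 mutant (10.6 to 34.4 RPKM). The change was -3.59 ± 0.09 log2 (limma adjusted p = 6.7e-08), and it kept between -3.99 and -2.63 in the alternatives tried. fat-5, a desaturase that prefers palmitic acid, was higher at 25C, with 61.7, 68 and 83.6 RPKM against 21.2, 23.6 and 42.3 RPKM. The groups were apart, and the change was 1.26 ± 0.15 (limma adjusted p = 0.00048). fat-6, the close relative of fat-7 with the same substrate, lay between 107 and 151 RPKM at 25C and between 94 and 115 RPKM at 20C, a difference of 0.24 ± 0.08 that passed the adjusted p in limma (0.043) but not the minimum change.

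No other of the 27 genes in the list of lipid and membrane metabolism was called. The elongases elo-1 and elo-2 differed by -0.28 ± 0.06 and -0.30 ± 0.07 and elo-6 by 0.37 ± 0.10, all under the minimum. The later desaturases fat-1 (0.00 ± 0.05), fat-2 (0.07 ± 0.05), fat-3 (-0.01 ± 0.08) and fat-4 (-0.01 ± 0.07) gave no call, nor did their regulators nhr-49 (0.07 ± 0.05), nhr-80 (0.03 ± 0.05) and sbp-1 (-0.20 ± 0.07). For paqr-2 and iglr-2, which sense membrane rigidity, the differences were -0.03 ± 0.05 and 0.10 ± 0.06. List and background share a median near 0, at -0.01 and 0.09.

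The next deepest falls after fat-7 were those of argk-1, ins-13 and C09B8.4. The arginine kinase argk-1 (F44G3.2), an enzyme that buffers ATP, had a lowest, median and highest level of 0.666, 5.02 and 8.74 RPKM at 25C and of 8.80, 43.8 and 76.3 RPKM at 20C. Both temperatures were lowest in the first pair and the groups just failed to touch, with a change of -3.01 ± 0.14 (limma adjusted p = 1.7e-06). ins-13, an insulin-like peptide, followed with 0.507, 2.40 and 9.03 RPKM against 4.64, 27.0 and 56.8 RPKM (-2.84 ± 0.25). The groups overlapped, with both at their lowest in the first pair, and the sign was negative in all 7 pairs. It was the single call among 51 tested genes of dauer and insulin signalling, where the TGF-beta ligand daf-7 differed by 0.07 ± 0.09.

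cth-1 (F22B8.6), a cystathionine gamma-lyase of cysteine synthesis, fell by 1.85 ± 0.14 on the log2 scale and ran from 10 to 23 RPKM at 25C and from 24.4 to 94.5 RPKM at 20C. The glucuronosyltransferase gene ugt-10 was at 0.716 RPKM or less at 25C and at 2.13 RPKM or more at 20C (-2.097 ± 0.19). The other 20C populations lay at or near the 25C values of ugt-10, wild-type DH5 at 0.102 to 0.929 RPKM and the lin-4 mutant at 0.271 to 1.16 RPKM. The same held for C14A11.5, with 0.3 to 1.16 RPKM at 25C, 0.224 to 0.631 RPKM in DH5 and 0.578 to 1.304 RPKM in the mutant. C09B8.4 (-2.41 ± 0.14), exh-1 (C36C5.5, -1.67 ± 0.08), C14A11.5 (-1.64 ± 0.09), F22E5.1 (-1.63 ± 0.20) and C36C5.12 (-1.61 ± 0.16) complete the larger falls together with nspc-6 and nspc-2 (-1.53 ± 0.08 each). The latter belong to a family of small nematode-specific peptides whose members nspc-2, nspc-5 and nspc-6 had near-equal values, so that these 3 calls among 17 tested nspc genes may rest on shared reads. her-1, the secreted protein that promotes male fate, was below 1.00 RPKM in every 25C library and between 1.81 and 2.81 RPKM at 20C (-1.07 ± 0.08), and the lin-4 mutant (0.170 to 0.323 RPKM) and DH5 (0.969 to 1.70 RPKM) reached into or below the 25C range.

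Genes known from the response to bacteria were among the rises. irg-5 (F35E12.5), an infection response gene of the intestine, had a lowest, median and highest level of 17.6, 76.7 and 113 RPKM at 25C and 3.47, 5.43 and 8.88 RPKM at 20C. No values overlapped and the change was 3.10 ± 0.27 (limma adjusted p = 7.3e-05). At 25C it was lowest at 19.5 h and highest at 27 h, but the change of its difference along the window, 2.06 ± 0.43 over 12 h, did not pass (limma adjusted p = 0.27). Its lin-4 mutant values, 9.66 to 21.9 RPKM, reached into the lower end of the 25C range. The lysozyme gene lys-7 stood at 59.6, 82.5 and 158 RPKM against 18.6, 24.9 and 48.4 RPKM (1.65 ± 0.05) and was highest in the first library of both temperatures. In the mutant it was at 33.8 to 156 RPKM. With the saposin-like gene spp-18 (1.83 ± 0.16) it makes the 2 calls among 31 lysozyme and saposin genes (1.54% of all genes were called higher). Downwards, spp-17 (-0.79 ± 0.12), ilys-5 (-0.67 ± 0.10) and lys-4 (-0.64 ± 0.11) passed the adjusted p below the minimum change.

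C-type lectins, a large family of predicted carbohydrate-binding proteins, were called higher in 9 and lower in 3 of 91 tested (median 0.18). Over all genes tested 1.54% were called higher and 0.335% lower. Of the 91, 11 lay above every paired 20C library (4.8% of all genes tested did) and 3 below (1.57%). clec-15 and clec-13, whose near-equal values may come from shared reads, had a lowest, median and highest level of about 2.04, 5.54 and 14.7 RPKM at 25C against 0.0507, 0.240 and 0.590 RPKM at 20C (2.40 ± 0.22 each). In the lin-4 mutant clec-15 was at 0.258 to 5.52 RPKM, which reaches into the 25C range, and in DH5 at 0.0381 RPKM or less. At 0 h clec-15 stood at 153 RPKM in the 25C population and at 41.2 RPKM in the 20C one. clec-209 (1.92 ± 0.12) was called too, and clec-70 fell most (-1.40 ± 0.32). In the lin-4 mutant clec-209 was at 27.8 to 74.97 RPKM, within and above the 25C range of 16.8 to 42.9 RPKM, and in DH5 at 7.39 to 54.02 RPKM.

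Enzymes that modify foreign and lipid compounds moved both ways, where 1.54% of all genes tested were called higher and 0.335% lower. Of 57 glucuronosyltransferases 3 rose and 2 fell, among them ugt-13 (2.34 ± 0.27) and ugt-43 (1.59 ± 0.15) upwards and ugt-10 downwards. ugt-13 ranged from 4.41 to 18.4 RPKM at 25C, but from 3.29 to 33.1 RPKM in DH5 and from 4.38 to 34.1 RPKM in the lin-4 mutant, and its call was lost with the largest time factor tried (limma adjusted p = 0.082, at most 0.013 in the other alternatives). Of 48 cytochrome P450 genes 4 rose and 1 fell, among them cyp-35A3 (1.71 ± 0.22), cyp-34A9 (1.101 ± 0.15) and cyp-33C8 (-1.22 ± 0.20), and for these 3 genes both DH5 and the mutant overlapped the 25C range. None of 36 glutathione transferases and none of 15 antioxidant genes was called. The lysosomal lipase lipl-2 (F46B6.8), from the list of 16 starvation genes, rose by 1.70 ± 0.16 as the only one of them.

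F-box genes of class A, adaptors of ubiquitin ligases that form a fast-changing family, gave 10 higher and 1 lower call among 83 tested. The shares over all genes were 1.54% and 0.335%, and the list median was 0.32. Above every paired 20C library were 18 of the 83 (4.8% of all genes tested were). Of the 10, fbxa-78 and fbxa-151 had near-equal values and may share reads. fbxa-24 had 27.2, 37.7 and 42.7 RPKM as lowest, median and highest at 25C and 3.88, 6.09 and 7.80 RPKM at 20C, a change of 2.47 ± 0.06 (limma adjusted p = 6.7e-08). fbxa-182 (2.26 ± 0.09) and fbxa-156 (2.12 ± 0.06) followed. fbxa-24 was also far apart before feeding, with 720 RPKM at 0 h in the 25C population and 98.0 RPKM in the 20C one, and so was fbxa-156 with 14.5 and 2.88 RPKM.

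**Figure D4:**
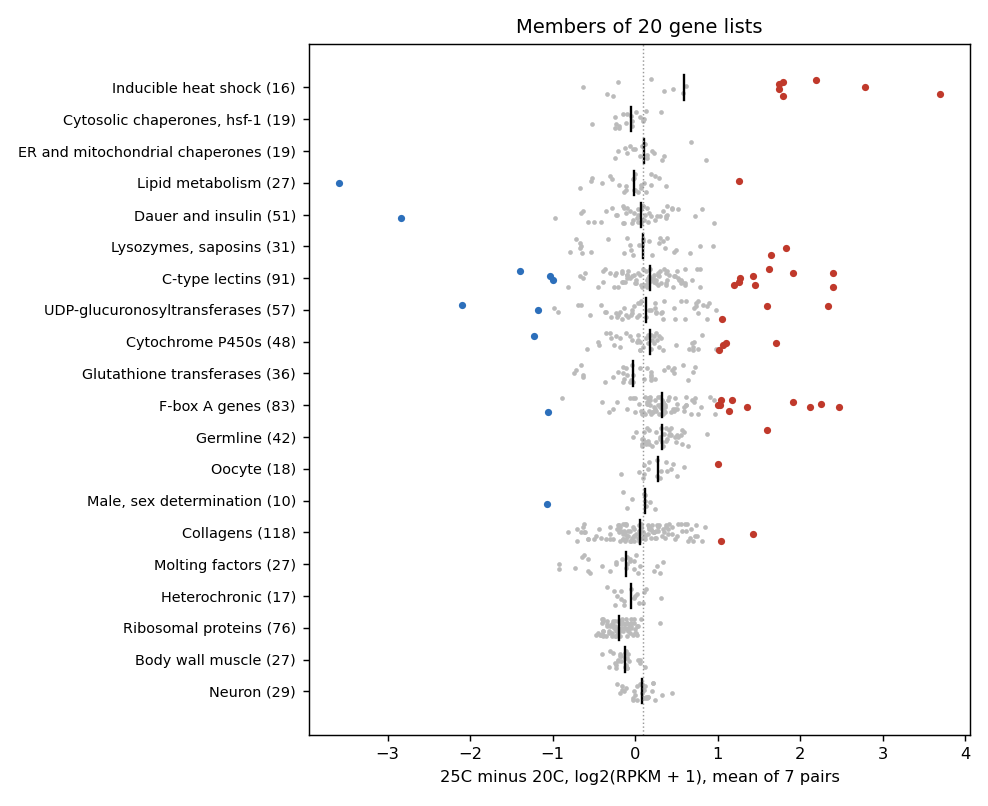
Difference of 25C minus 20C on the log2(RPKM + 1) scale (x axis) for each tested member of 20 gene lists (rows, with the number tested), red for called higher, blue for called lower and grey for not called. Black bars are list medians and the dotted line is the median of all genes, 0.09, and the calls of the inducible heat shock list all stand to the right, while 3 lectins and 1 F-box gene are called to the left.

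Most germline transcripts measured slightly higher at 25C. Of 42 germline genes 41 had a difference above 0 and 27 passed limma's adjusted p, all upwards, with a median of 0.33 beside 0.09 for all genes, yet 1 was called. Of all genes tested 67.5% had a difference above 0 and 27.1% passed the adjusted p upwards. That gene was prg-1, the Piwi protein that binds piRNAs and guards the germ line, with 63.8, 77.1 and 95.1 RPKM at 25C against 17.6, 22.2 and 43.5 RPKM at 20C (1.60 ± 0.08, limma adjusted p = 3.7e-06). The groups were apart, and the mutant lay at 18.1 to 27.4 RPKM, below the 25C range. DH5, which covers later times, ran from 40.1 to 84.7 RPKM and overlaps it. pid-2 (Y48G1C.1), a further factor of the piRNA pathway named after its value was seen, rose by 1.11 ± 0.08. The meiotic nuclease spo-11 came next in the list with 0.87 ± 0.07. Among 18 oocyte genes 17 were above 0 and puf-7, a Pumilio-family RNA-binding protein, was called (1.007 ± 0.09), a call lost in 8 of 20 alternatives.

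The germline median moved with the alignment. It was 0.53 against 20C libraries taken 2 h earlier, 0.15 against those 2 h later and 0.07 with the largest time factor tried, where all genes had 0.09. At 20C the summed level of the list spanned 525 to 985 RPKM over the window and at 25C 665 to 1137 RPKM. prg-1 kept a change of 1.31 log2 or more in every alternative. In RNA of whole larvae, more germ cells and more RNA per germ cell cannot be told apart. Spermatogenesis genes (13 tested) and the 1 yolk gene tested of 6, a kind that marks adults, gave no call, and the summed yolk level was at most 7.53 RPKM in all 14 libraries.

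Over all genes tested 1.54% were called higher and 0.335% lower, and short lists can hold no call at such shares. Somatic tissue lists showed no call. This holds for 29 neuron, 27 body wall muscle, 16 pharynx, 24 intestine and 23 vulva and gonad genes, with medians from -0.12 for body wall muscle to 0.11 for vulva and gonad. Of the muscle genes 12 passed limma's adjusted p downwards and 0 upwards (8.39% and 27.1% of all genes tested did). A difference above 0 was seen in 4 of them, beside 67.5% of all genes. Of 44 cell cycle genes none was called, with a median of 0.17. Above 0 were 42 of them, and 21 passed limma's adjusted p upwards and 0 downwards. Ribosomal protein genes had a median of -0.19 over 76 genes, 34 of which passed limma's adjusted p downwards (8.39% of all genes tested did). Below every paired 20C library lay 12 of them (1.57% of all genes tested did), none by as much as the minimum change. Of 11 thermosensory genes the nuclear receptor nhr-38 was called, with 0.830, 2.36 and 4.12 RPKM at 25C against 0.0846, 0.113 and 0.351 RPKM at 20C (1.33 ± 0.20). The guanylyl cyclases gcy-8, gcy-18 and gcy-23 of the thermosensory AFD neurons differed by -0.10 ± 0.07, -0.15 ± 0.07 and -0.12 ± 0.08.

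Genes of the cuticle gave few calls, as did all genes tested, of which 1.54% were called higher and 0.335% lower. Of 118 collagens 2 were called, col-150 (1.43 ± 0.18) and col-182 (1.04 ± 0.12), and of 38 hedgehog-related genes grl-27 (1.15 ± 0.20), of 14 antimicrobial peptide genes nlp-25 (1.03 ± 0.21). All 4 vary widely within each temperature and overlap, as col-150 with 8.85 to 84.8 RPKM at 25C and 1.56 to 31.5 RPKM at 20C. Without the pairing in the fit none of the 4 passed (limma adjusted p = 0.056 to 0.13). The call was lost in 13 of 21 alternatives for nlp-25, in 8 of 21 for col-182, in 6 of 20 for grl-27 and in 4 of 21 for col-150. No call came from 27 patched-related genes, 26 astacin proteases, 21 pharyngeal cuticle genes or 13 collagen-modifying enzymes.

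Several of the largest rises belong to genes of little known function. Y68A4A.13 had 9.40, 13.9 and 21.7 RPKM at 25C and at most 0.543 RPKM at 20C (3.58 ± 0.16), and F15D4.5 held 14.8 to 17.2 RPKM at 25C against 0.527 to 0.868 RPKM (3.32 ± 0.06). Y39G8B.7 stood at 28.3 to 40.3 RPKM against 1.72 to 4.52 RPKM (3.34 ± 0.08). lido-8 (K08A2.1) and lido-9 (C41H7.6) rose by 3.32 ± 0.14 and 3.12 ± 0.12. Of 10 tested genes of the lido family, looked at after these 2 were seen, 5 were called higher, lido-8 to lido-12, of which 4 have neighbouring clone names (C41H7.3 to C41H7.6).

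Some of these differences were already in the populations before they fed. At 0 h, with 1 library each, 50 of the 193 higher genes were 1 log2 or more higher in the 25C population, against 1.83% of all genes tested, and 13 were that much lower. Of the 42 lower genes 12 were lower by that much at 0 h, against 5.01% of all genes, and 1 was higher. The median difference at 0 h was 0.46 for the higher and -0.37 for the lower genes, beside -0.01 over all. fat-7 stood at 1.79 and 2.92 RPKM at 0 h in the 25C and 20C populations, and hsp-16.41 at 32.8 and 24.1 RPKM. The labels used here do not say at which temperature the larvae hatched and starved.

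How strictly the 2 temperatures part was counted without a model. All 7 values at 25C lay above all 7 at 20C in 602 genes and below them in 197. After rescaling the counts were 387 and 444, so this balance changed with the scaling. Of the called genes 157 higher and 16 lower ones did not overlap. Set against all wild-type 20C libraries from 20 to 48 h, DH5 included, 100 of the 193 stayed above and 4 of the 42 below. These 4 are fat-7, cth-1, F22E5.1 and the lectin clec-3, the last named after its value was seen. Against DH2 and the lin-4 mutant at 26 to 38 h 108 stayed above and 3 below. Among the named genes, values of DH5 or the mutant reached into or past the 25C range in 19 of 35 called higher, by DH5 in 12 and by the mutant in 13. They did so in 13 of 14 called lower, by DH5 in 4 and by the mutant in 13, with fat-7 as the exception. DH5 covers later hours and DH4 another genotype, so population, time and genotype cannot be told apart there.

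Few changes of the difference in the course of the window passed the test. None of 12543 genes had a difference that rose by the criteria (0%, with 304 genes at an unadjusted p under 0.05 in limma) and 7 had one that fell (0.0558%, 675 unadjusted). These are the collagens col-176 (-4.06 ± 0.47 over 12 h) and col-158 (-2.63 ± 0.23), the cathepsin B protease cpr-4 (-1.99 ± 0.19), clec-15 and clec-13 (-1.86 and -1.85, one pair of near-equal genes), cyp-13A2 (-1.46 ± 0.17), and T04A6.1, named to complete the 7. These calls were weak: their limma adjusted p lay between 0.035 and 0.048, leaving out any of the 7 pairs left 0 or 1 gene, and on simulated data the same test also called some unchanged genes. cpr-4 stood at 259 RPKM at 25C and 206 RPKM at 20C in the first pair, and at 169 and 504 RPKM in the last. col-176 was at 206 RPKM in the last 20C library and at 50.6 RPKM or less in the other 13. Without the pairs at 36 and 38 h no gene passed.

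Most differences had been there in the cycle before. Over 6 pairs of the second cycle (10.5 to 18 h at 25C, 14 to 24 h at 20C) the difference was above 0 in 185 of 192 of the higher genes with a value and below 0 in 41 of the 42 lower ones. Medians there were 1.17 and -1.15, beside 0.07 over all genes. The same populations were sampled in both cycles, so the second is no independent check. Whether the difference itself changed was tested over 12763 genes in 26 libraries: 47 genes (0.368%) had a higher difference in the third cycle and 7 (0.0548%) a lower one. Without the pairs at 36 and 38 h these counts fell to 15 and 1, of which 14 and 1 were among the 47 and 7, while all 54 kept their sign.

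**Figure D5:**
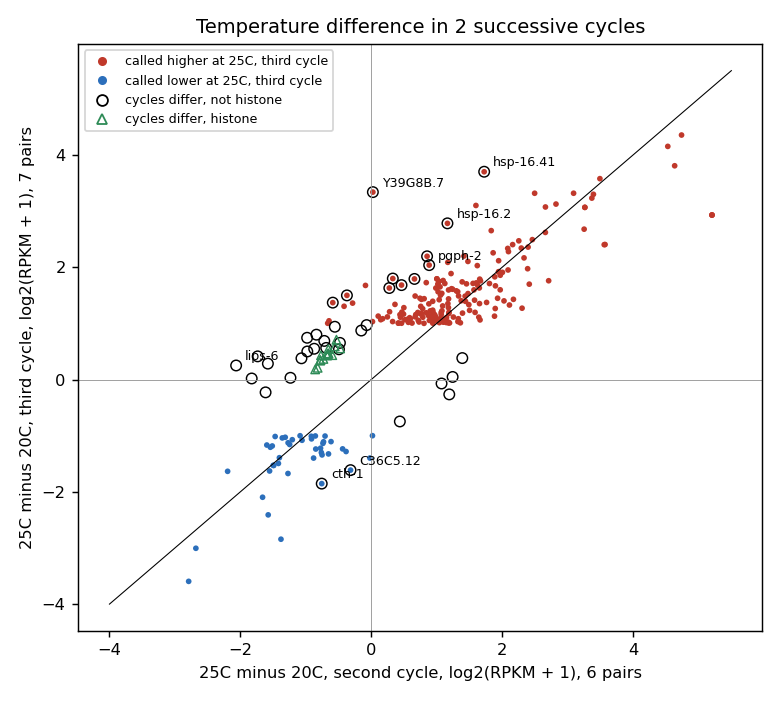
Difference of 25C minus 20C on the log2(RPKM + 1) scale in the second cycle (x axis, 6 pairs) and the third (y axis, 7 pairs), for called genes of the third cycle (red higher, blue lower) and for the 54 genes whose difference changed between cycles (open circles, or green triangles for histones). Most called genes lie near the line of equal differences, Y39G8B.7 far above it, and the histones cross from below 0 to above 0.

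Y39G8B.7 changed most between cycles: its difference was 0.02 in the second and 3.34 in the third, since it went from 2.01 to 33.5 RPKM on average at 25C and from 1.66 to 2.50 RPKM at 20C (change 3.31 ± 0.26, limma adjusted p = 6.7e-05). hsp-16.41 and hsp-16.2 were apart by 1.72 and 1.16 log2 in the second cycle and by 3.70 and 2.78 in the third (change 1.98 ± 0.39 and 1.62 ± 0.36). At 25C hsp-16.41 averaged 37.8 RPKM and then 66.4, and at 20C 9.82 and then 3.97. These 2 changes missed the adjusted p without the pairs at 36 and 38 h (0.093 and 0.11), with values of 2.09 and 1.77. The 3 pgph genes, pgph-1 to pgph-3, looked at after they were seen among the calls, were called higher in the third cycle (1.79, 2.04 and 1.68 log2) after differences of 0.66, 0.88 and 0.46 in the second. cth-1 and C36C5.12 moved downwards, by -1.096 ± 0.19 and -1.30 ± 0.23. Without the pairs at 36 and 38 h the changes of pgph-1, pgph-3, cth-1 and C36C5.12 missed the adjusted p in limma, at 1.22, 1.297, -1.02 and -1.25 log2, and pgph-2 kept it (0.035).

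Histone genes make up 18 of the 47, an observation made after the calls were seen. These are 18 of 64 tested histone genes, beside 0.368% of all genes tested. In 59 of the 64 the 25C level was below 20C in the second cycle (median -0.66, beside 0.07 over all genes). In the third cycle it was above 20C in 58 of 64 (median 0.22, beside 0.09), as in 67.5% of all genes tested. In the third cycle by itself none of the 64 was called. Core histone genes exist in many near-identical copies, and most of their messages lack the poly(A) tail on which these libraries were selected, so reads may be shared between entries. Of the 18, 4 kept the call without the pairs at 36 and 38 h. These were his-61 and, with near-equal values that may come from shared reads, his-10, his-14 and his-26. Without those pairs the changes of all 18 ran from 0.946 to 1.265, beside 1.028 to 1.241 with them.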

How the data were processed

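Poly(A) RNA of whole larvae was measured in 71 libraries from 4 populations, of which 14 are compared. The authors deposited RPKM values, a read density per gene length and library size. The submitters' processing notes name BWA 0.5.9, an aligner. For the genome build, annotation, counting rule and strand, the sources used here give nothing. Of 21777 entries, 19120 named genes were kept, unnamed entries holding 1.58 to 1.83% of the RPKM, and cells without a value were taken as 0. RPKM keep no error of counting, so depth was only estimated from steps of low values.

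Genes that averaged 1 RPKM or more in these 14 libraries were tested with limma 3.58.1 (R 4.3.3) on log2(RPKM + 1), which understates changes of low genes, with an intensity trend and the pair as a block, and called where the Benjamini-Hochberg adjusted p was below 0.05 and the change 1 log2 or more. The same model with a temperature by time term gave changes over 12 h, and with a temperature by cycle term the change between cycles. The pairs come from the labelled times. Deviations of paired libraries from their group means correlated at 0.352 to 0.803 (median 0.696), over 0.1 in all 7 pairs. The fits were tested on simulated data, where the one along the window also called some unchanged genes. Summaries and figures used Python 3.11.15, NumPy 2.4.6, pandas 2.3.3 and Matplotlib 3.10.9.

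Named genes are the 12 largest rises and 12 largest falls with the same sign in all 7 pairs, up to 3 called members of each list, 14 chosen regulators and markers, and the 6 largest called changes along the window in each direction. Members, lists and rule were chosen with earlier results of these data known. Families (pud, lido, histone, pgph, nspc), pid-2 and the alternatives that average the 27 and 28.5 h libraries or leave out the pairs at 36 and 38 h were added after seeing the values. Further alternatives varied the pseudocount, filter, scaling, time factor, time shift and block and left out each pair in turn.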

Additional observations from a re-analysis of the deposited data

Results flagged for a closer look

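In 3 of the 65 named genes, 1 pair stood apart from the other 6 in its difference between 25C and 20C. For cyp-34A9 the pair at 30 h differed by 0.14 log2, while the others ran from 1.07 to 1.63. For fbxa-182 the pair at 32 h differed by 1.77, while the others ran from 2.27 to 2.47. For hbl-1 the pair at 32 h differed by 0.57, while the others ran from -0.10 to 0.17. Chance flags about 1 in 20 groups, so 3 among 65 is near what chance alone would give.

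For 5 named genes the difference between temperatures itself differed between the second and the third cycle in limma. It moved by 3.31 log2 for Y39G8B.7, 1.98 for hsp-16.41 and 1.62 for hsp-16.2 upwards, and by -1.096 for cth-1 (F22B8.6) and -1.30 for C36C5.12. Without the pairs at 36 and 38 h the call of Y39G8B.7 held, and those of the other 4 did not.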

How the results depend on the processing

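No called named gene changed its sign in any alternative, while 12 of the 16 named genes without a call did, col-176 (-1.05 to 0.27), lin-41 (-0.46 to 0.25) and mlt-10 (-0.11 to 0.59) among them. With a pseudocount of 0.1 RPKM 78 genes were lower at 25C, 2 changes along the window fell and 77 differences were higher in the third cycle. With 5 RPKM 82 genes were higher and 16 lower, and 16 differences were higher in the third cycle. Without a filter 1 change along the window fell. With a mean of at least 5 RPKM 120 genes were higher, 0 changes along the window fell, and 27 and 1 differences were higher and lower in the third cycle. Rescaling gave 1 rising change along the window and 387 and 444 genes without overlap. Shifting 20C by 2 h earlier or later left 0 falling changes. Leaving out each pair in turn gave 179 to 208 higher and 35 to 50 lower genes and 0 to 1 falling changes. With no minimum change 3399 and 1052 genes passed. Against all wild-type 20C libraries from 20 to 48 h 197 and 56 genes did not overlap, and against DH2 and the lin-4 mutant 251 and 65. Set against the first and second cycle together, 82 and 25 differences were higher and lower. Averaging 27 and 28.5 h left 0 falling changes and 3 lower differences between cycles. Without the pairs at 36 and 38 h there were 0 falling changes, 15 and 1 differences between cycles, and 984 and 357 genes without overlap. Without the replicate block 184 genes were higher and 34 lower. The causes of these changes were not tested. Depth is an estimate, so no counting interval is given.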
